A study of Rattus norvegicus with 24 samples.

Results

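The 10 genes described here encode the contractile apparatus of smooth muscle: Acta2, Actg2, Tagln, Myl9, Mylk, Myh11, Cnn1, Des, Tpm1 and Tpm2. They were taken by symbol from a table of 34523 genes, and each symbol matched a single row. Enough counts for a test were present for 14770 genes, among them 8 of the 10. Actg2 and Cnn1 did not pass, with at most 9 and 3 counts in a library.

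In smooth muscle, myosin filaments pull on actin filaments when myosin light chain kinase phosphorylates the regulatory light chain. Tropomyosin, calponin and transgelin lie along or bind the actin filament, and desmin filaments tie the apparatus to the rest of the cell. Many of these genes carry CArG boxes, the sites of serum response factor (SRF), which acts with the coactivator myocardin or with its relatives. In endothelial cells Acta2 and Tagln are widely used as markers of a change towards a mesenchymal state.

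The libraries were made from total RNA of a line of rat pulmonary microvascular endothelial cells (PMVEC), which form the inner lining of lung capillaries. They carried intact Pfkfb3 (wild type, WT) or were its knockout (KO). Pfkfb3 encodes an enzyme that makes a sugar bisphosphate which activates glycolysis. All groups spent 24 h in medium with a sugar at 25 mM, either glucose or fructose, under normoxia or hypoxia, which gave 8 groups of 3 libraries. Oxygen level, the altered part of Pfkfb3, the number of KO clones and the origin of the libraries of a group (separate cultures or not) are absent from the labels, so p-values measure only the spread between these libraries, which may be technical. No group received neither sugar, so adding fructose and removing glucose cannot be told apart, and with a KO line of unknown clone number the gene and the line cannot be told apart either.

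Library totals lay between 14344010 and 23028807 counts. Pfkfb3 stood at 56.7 to 158.7 CPM (counts scaled to 1e+06 per library) in the 12 WT libraries and at 31.94 to 62.83 CPM in the 12 KO libraries. It was lower in KO in each medium, with log2 changes in normoxia of -0.59 for glucose and -1.77 for fructose and in hypoxia of -0.56 and -1.50, and the transcript was still present in KO. The labelled cell type was checked against 12 endothelial genes. Of these 5 stayed below 1 CPM in every library (Cdh5, Kdr, Emcn, Esam and Cldn5), 2 of them, Emcn and Cldn5, at 0. Vwf, the clotting factor stored by endothelial cells, ranged from 6.388 to 14.58 CPM over WT libraries and from 52.43 to 65.96 CPM over KO libraries. Myocd, which encodes myocardin, had 3 counts in all 24 libraries together. These are bulk samples, in which fewer cells of a type and less RNA per cell cannot be told apart.

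Promoter sequences of 7 of the 10 genes were found in RefSeq (build GRCr8), from 250 bases before to 50 bases after the annotated start. Tagln, Myl9 and Myh11 had no entry. The windows were searched on both strands for the CArG box, with 1 G or C allowed in its A and T core, and for CATTCC, the element bound by TEAD factors, whose complement is GGAATG. The 3 windows below are those with a match. Among the tested members Acta2 rose most and Mylk fell most with fructose in WT cells, and a link to the matches was not tested. Capitals mark the matches.
Acta2, chr1:241172454-241172753, minus strand, GRCr8: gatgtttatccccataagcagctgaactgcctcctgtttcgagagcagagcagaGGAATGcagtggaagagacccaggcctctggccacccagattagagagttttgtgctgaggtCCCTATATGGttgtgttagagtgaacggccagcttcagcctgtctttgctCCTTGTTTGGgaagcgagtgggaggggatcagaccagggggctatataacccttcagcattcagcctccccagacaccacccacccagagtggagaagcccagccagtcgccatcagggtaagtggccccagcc
Mylk, chr11:79498525-79498824, minus strand, GRCr8: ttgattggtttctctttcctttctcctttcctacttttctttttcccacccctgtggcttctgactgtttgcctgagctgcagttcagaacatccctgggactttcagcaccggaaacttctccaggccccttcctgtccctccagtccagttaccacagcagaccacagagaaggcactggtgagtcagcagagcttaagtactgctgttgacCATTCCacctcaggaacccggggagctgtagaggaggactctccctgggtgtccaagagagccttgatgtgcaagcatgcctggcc
Tpm1, chr8:76543366-76543665, minus strand, GRCr8: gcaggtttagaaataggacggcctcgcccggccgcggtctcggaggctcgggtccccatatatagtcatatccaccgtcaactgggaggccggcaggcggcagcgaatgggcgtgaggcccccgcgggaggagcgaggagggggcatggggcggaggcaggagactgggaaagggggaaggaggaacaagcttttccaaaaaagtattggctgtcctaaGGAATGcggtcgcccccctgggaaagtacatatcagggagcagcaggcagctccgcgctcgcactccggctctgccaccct

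The Acta2 window held 2 CArG boxes, which begin at positions -134 and -84 from the start, and a GGAATG at position -196. Of all 33469 promoters in the RefSeq table, 9.42% held at least 1 CArG box of this kind and 0.846% held 2 or more. No window of the 7 genes held a CArG box with a pure A and T core, a form present in 1.64% of all promoters. The Mylk window held a CATTCC at position -36 and the Tpm1 window a GGAATG at position -31, an element that 14.2% of all promoters carry on either strand. The windows of Actg2, Cnn1, Des and Tpm2 held none of these letters. No match overlapped another, and the matches are descriptions of sequence, not of binding.

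Per length of transcript, the tropomyosins were the most abundant members and Actg2 and Cnn1 the least. Levels between genes were compared as TPM (transcripts scaled to 1e+06), computed from the gene lengths in the table. By its median over the 24 libraries Tpm2 came first at 341.1 TPM, then Tpm1 at 155.4 TPM, Des at 73.95 TPM and Tagln at 42.92 TPM. Mylk followed at 20.8 TPM and Acta2 at 20.71 TPM, then Myl9 at 5.253 TPM and Myh11 at 1.164 TPM. Actg2, the enteric smooth muscle actin, stood at 0.07626 TPM and Cnn1, smooth muscle calponin, at 0 TPM. Neighbours in this order had overlapping ranges over the libraries, except for Myh11 and Actg2. Tpm2 lay above Tpm1 in all 24 libraries and Myl9 above Myh11 in all 24, whereas Mylk lay above Acta2 in 12 of 24.

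The order differed between the genotypes. In WT, Acta2 averaged 123 TPM and ranged from 24.77 to 243.2 TPM, while in KO it averaged 10.44 TPM and ranged from 4.476 to 16.66 TPM. Those ranges do not overlap. Des ranged from 23.95 to 68.34 TPM in WT and from 79.56 to 185.4 TPM in KO, also without overlap. Between the genotypes Des was thus high where Acta2 was low. Within a genotype Pearson's r of their log2 CPM was positive, at 0.65 over 12 WT libraries and 0.54 over 12 KO libraries. Tpm1 and Tpm2 were closer in WT, at 199.5 and 284.1 TPM, than in KO, at 122.8 and 424.1 TPM.

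Beside their paralogs outside smooth muscle, most of the members were minor forms. Actb, cytoplasmic beta-actin, averaged 5498 TPM in WT and 4728 TPM in KO. The smooth muscle actins made up 0.416% ± 0.076 (SD, n = 3) of all actin TPM in WT normoxia glucose and 2.48% ± 0.31 (SD, n = 3) in WT normoxia fructose. In KO normoxia the share stood at 0.0772% ± 0.013 for glucose and 0.222% ± 0.012 for fructose (SD, n = 3 each). Myl12a, a regulatory light chain of non-muscle myosin, averaged 1307 TPM in WT and 3069 TPM in KO, against 4.7 and 6.565 TPM for Myl9. Tagln2 averaged 1447 TPM in WT, Cnn3 513.1 TPM and Vim, which encodes vimentin, 1798 TPM. For myosin heavy chains, given as CPM and so not per length, Myh10 averaged 243.1 CPM in WT, Myh11 4.951 CPM and Myh9 2.949 CPM. In KO they averaged 182, 4.271 and 2.692 CPM, so the mean of Myh9 lay below that of Myh11 in each genotype. Tropomyosin stood apart, since Tpm1 and Tpm2 together made up 30.1 to 38.7% of the TPM of the 4 tropomyosin genes as group means. The counts are per gene and do not separate transcript forms of Tpm1 or Tpm2. That share therefore cannot be read as a share of smooth muscle tropomyosin. The actin genes are nearly identical in coding sequence, so reads could be split among them by the counting, which the sources do not describe.

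**Figure D1:**
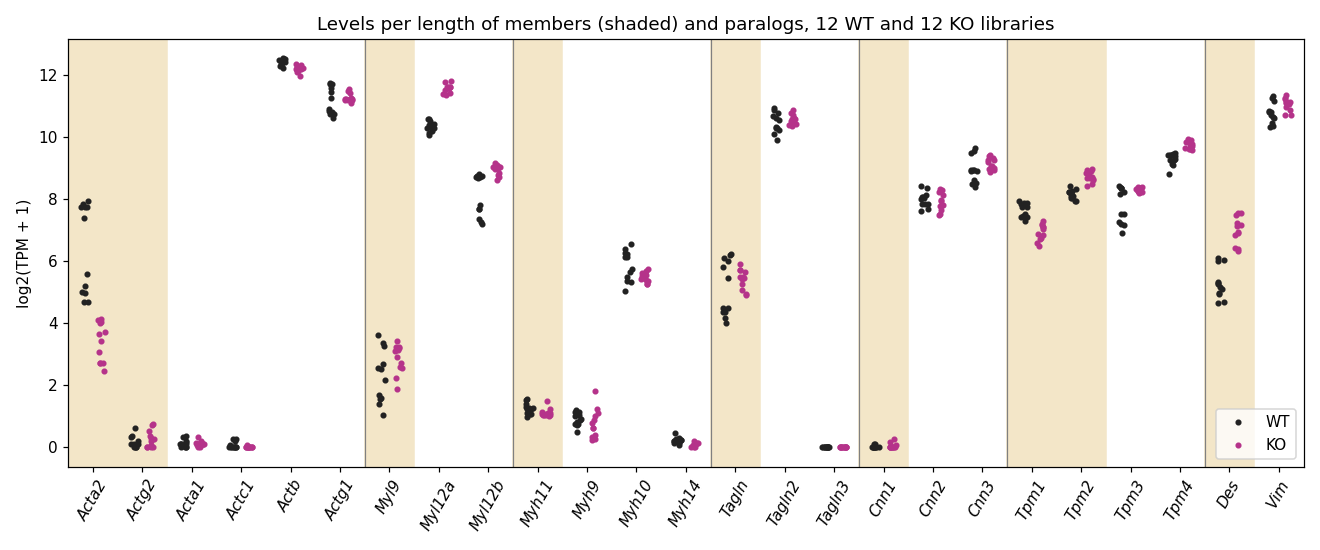
Level of each member (shaded) and of its paralogs in 12 WT and 12 KO libraries, as log2(TPM + 1), with 1 point per library and families separated by vertical lines. Acta2 falls from an average of 123 TPM in WT to 10.44 TPM in KO, while Actb, Myl12a, Tagln2, Cnn3 and Vim lie far above the smooth muscle form of their family.

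The first question of the design is how KO cells differ from WT cells, medium by medium. Of the 8 tested members, 4 were higher and 2 lower in KO in normoxia glucose, where 22.7% of all tested genes were called higher and 23.7% lower at an adjusted p under 0.05. In normoxia fructose 3 were higher and 2 lower, against 25.7% and 28% of all tested genes. In hypoxia glucose 5 were higher and 2 lower, against 24.3% and 24.1%. In hypoxia fructose all 8 were called, 3 higher and 5 lower, against 25.7% and 28.8%. The median size of the log2 change over the tested members ran from 0.53 to 1.24 in the 4 media, beside 0.37 to 0.45 over all tested genes. The members were chosen with earlier results of these data known, so these medians are a description and their difference was not tested. The members did not move as a block: Acta2 and Tpm1 were lower in KO in all 4 media, Des and Tpm2 higher in all 4, and Tagln and Myl9 were higher with glucose but not with fructose.

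The second question is what fructose changes against glucose. In WT normoxia 4 members rose with fructose and 2 fell, where 19.9% of all tested genes rose and 17.9% fell. In WT hypoxia 5 rose and 1 fell, against 24.6% and 20.9%. In KO normoxia 2 rose and 1 fell, where only 1.14% and 0.65% of all tested genes did so. In KO hypoxia 1 rose and 2 fell, against 2.69% and 2.73%. For hypoxia against normoxia, 1 member rose and 0 fell in WT glucose (3.39% and 1.42% of all tested genes), and 3 rose and 1 fell in WT fructose (11.3% and 9.91%). In KO glucose 2 rose and 0 fell (7.96% and 6.07%), and in KO fructose 1 rose and 2 fell (9.71% and 10.3%). In WT glucose 2 members and in KO glucose 4 had an unadjusted p under 0.05. The share of all tested genes at that unadjusted threshold is not given here, so these counts cannot be judged against it. DESeq2 called no member lower with hypoxia in either glucose comparison. Each group of libraries enters 3 of these comparisons, so the values of the families are set side by side and are not independent.

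**Figure D2:**
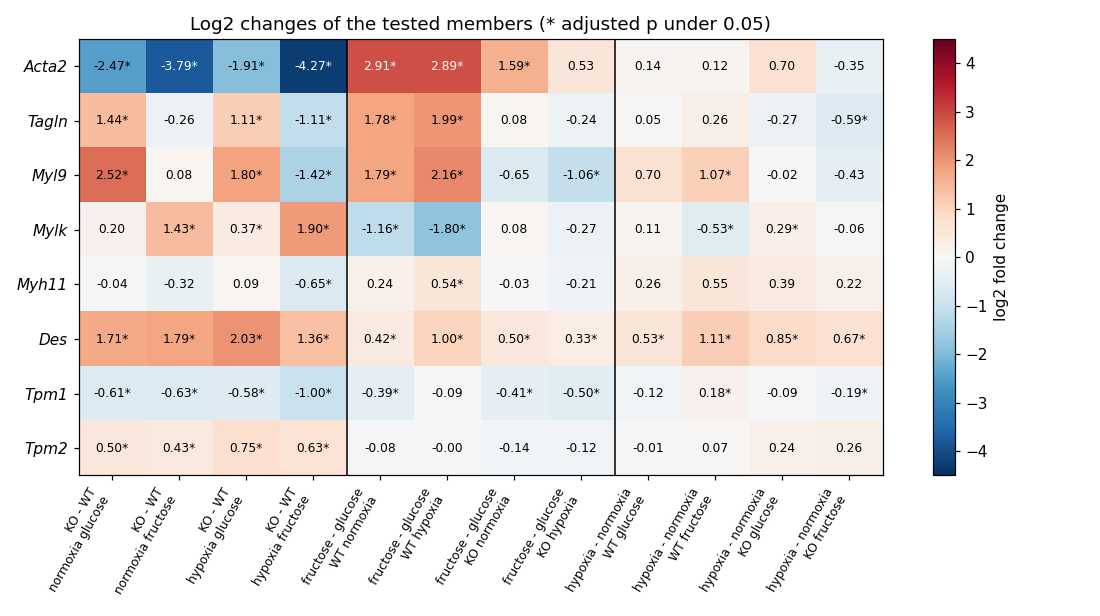
Log2 fold change of the 8 tested members (rows) in 12 comparisons (columns), from the edgeR fit, with the value in each cell and an asterisk where the adjusted p over all tested genes was under 0.05. Acta2 is lower in KO in every medium (-2.47, -3.79, -1.91 and -4.27) and Des is higher in every column.

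Acta2 encodes alpha smooth muscle actin (Rnor_6.0, chromosome 1, 252537615 to 252550394, minus strand). In WT normoxia its level was 25.49, 18.43 and 22.72 CPM with glucose and 180.7, 170.8 and 125.0 CPM with fructose. In WT hypoxia it was 34.09, 18.3 and 21.87 CPM with glucose and 160.9, 158.9 and 164.0 CPM with fructose. Every WT fructose library therefore lay far above every WT glucose library, and the oxygen conditions overlapped with each sugar. In KO normoxia the values were 4.23, 3.346 and 4.248 CPM with glucose and 12.57, 11.95 and 11.44 CPM with fructose. In KO hypoxia they were 8.856, 5.568 and 4.257 CPM with glucose and 11.17, 7.469 and 8.82 CPM with fructose. No KO library reached the lowest WT library, and the KO sugar groups overlapped in hypoxia but not in normoxia.

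Fructose raised Acta2 7.52-fold in WT normoxia (log2 2.91, SE 0.23, adjusted p = 1.36e-08, edgeR quasi-likelihood test with Benjamini-Hochberg adjustment) and 7.42-fold in WT hypoxia (log2 2.89, SE 0.23, adjusted p = 7.57e-09). In KO normoxia the rise was 3.01-fold (log2 1.59, SE 0.29, adjusted p = 0.00522), and in KO hypoxia the log2 change was 0.53 (SE 0.27) and did not pass (adjusted p = 0.323). The fructose change in KO was smaller than in WT by 1.32 log2 units in normoxia (value -1.32, SE 0.38, adjusted p = 0.0179) and by 2.36 in hypoxia (value -2.36, SE 0.35, adjusted p = 6.71e-05). The normoxia difference lost its call without replicate 1 or without replicate 3 of KO normoxia glucose, at adjusted p = 0.0521 and 0.055. KO against WT, the level was 5.55-fold lower in normoxia glucose, 13.8-fold lower in normoxia fructose, and in hypoxia 3.76-fold lower with glucose and 19.3-fold lower with fructose. Hypoxia gave no Acta2 call in the 4 comparisons by edgeR. DESeq2 called it higher with hypoxia in KO glucose (log2 0.71, adjusted p = 0.0281). The median log2 KO against WT change of the 50 tested genes nearest to Acta2 lay between -0.01 and 0.26, beside -1.91 to -4.27 for Acta2.

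**Figure D3:**
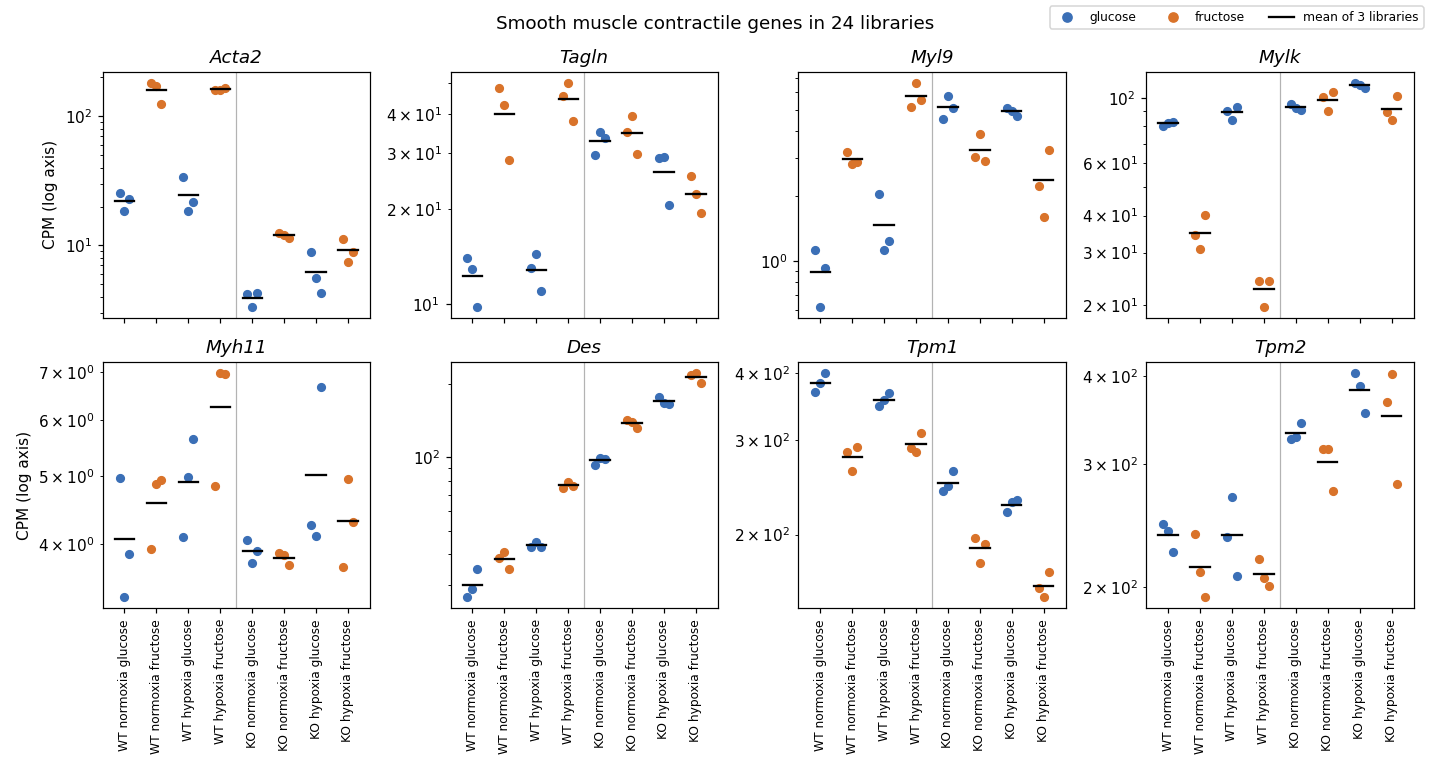
CPM (log axis) of the 8 tested members in each of 24 libraries, in 8 groups, with blue points for glucose, orange points for fructose and a bar at the mean of 3 libraries. WT fructose libraries are high for Acta2, Tagln and Myl9 and low for Mylk. In KO the sugar groups overlap for Tagln in each oxygen condition and for Mylk in normoxia, while in hypoxia KO Mylk is 84.07 to 101.7 CPM with fructose and 107.9 to 112.1 CPM with glucose.

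Myl9 and Mylk are the regulatory light chain of smooth muscle myosin and the kinase that phosphorylates it, and they moved in opposite directions with fructose in WT cells. Myl9 (chromosome 3, 152857592 to 152863960, plus strand) was a low gene, with 11 to 133 counts in a library. In WT normoxia it stood at 1.132, 0.618 and 0.9283 CPM with glucose and at 3.205, 2.815 and 2.862 CPM with fructose. In WT hypoxia the values were 2.05, 1.128 and 1.242 CPM with glucose and 5.16, 6.624 and 5.563 CPM with fructose. WT fructose libraries were above WT glucose libraries in each oxygen condition, and the WT hypoxia fructose libraries were the highest of the WT. KO normoxia gave 4.524, 5.786 and 5.065 CPM with glucose and 3.036, 3.86 and 2.913 CPM with fructose. KO hypoxia gave 5.074, 4.938 and 4.688 CPM with glucose and 2.221, 1.607 and 3.265 CPM with fructose. In KO the order of the sugars was the opposite, with each fructose library below each glucose library of the same oxygen condition.

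In log2 terms fructose raised Myl9 by 1.79 (SE 0.29, adjusted p = 2.08e-05) in WT normoxia and by 2.16 (SE 0.27, adjusted p = 4.47e-07) in WT hypoxia. In KO normoxia the value of -0.65 did not pass (SE 0.26, adjusted p = 0.278), and in KO hypoxia Myl9 fell by 1.06 (SE 0.26, adjusted p = 0.0142). That last call was lost on leaving out replicate 1 or 2 of KO hypoxia glucose (adjusted p = 0.0504 and 0.0505) or replicate 1 or 2 of KO hypoxia fructose (0.0585 and 0.0876). The difference between the genotypes in the fructose change was -2.44 (SE 0.39, adjusted p = 6.15e-05) in normoxia and -3.22 (SE 0.38, adjusted p = 8.56e-07) in hypoxia. The KO against WT change of Myl9 took both signs: 2.52 in normoxia glucose and 1.80 in hypoxia glucose, with adjusted p of 9.4e-08 and 5.98e-06, but -1.42 in hypoxia fructose (adjusted p = 6.03e-05). In normoxia fructose it was 0.08 and did not pass (adjusted p = 0.813). Hypoxia raised Myl9 by 1.07 in WT fructose (SE 0.26, adjusted p = 0.00364). The nearest 50 tested genes had median KO against WT changes of -0.30 to -0.42.

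Mylk (chromosome 11, 69013050 to 69223158, minus strand) was the member that fell with fructose in WT under both oxygen conditions. In WT normoxia its level was 80.09, 82.36 and 83.11 CPM with glucose and 34.3, 30.75 and 40.07 CPM with fructose. In WT hypoxia it was 90.03, 84.34 and 93.27 CPM with glucose and 24.01, 19.67 and 24.05 CPM with fructose. The WT sugar groups were fully apart, and hypoxia fructose was the lowest group of all 8. KO libraries stayed between 84.07 and 112.1 CPM in all 4 media, a range that overlaps the WT glucose libraries and lies above every WT fructose library. Fructose lowered Mylk by a log2 change of -1.16 (SE 0.087, adjusted p = 2.42e-10) in WT normoxia and -1.80 (SE 0.09, adjusted p = 9.98e-14) in WT hypoxia. The KO values were 0.08 in normoxia (adjusted p = 0.805) and -0.27 in hypoxia (adjusted p = 0.0652), and the second, where the groups did not overlap, was called lower by DESeq2 (adjusted p = 0.0291), with a replicate block (0.0134) and without WT normoxia fructose replicate 3 (0.0414), WT hypoxia fructose replicate 2 (0.0476) or KO hypoxia fructose replicate 3 (0.0364).

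The fructose change of Mylk differed between the genotypes by 1.24 (SE 0.12, adjusted p = 1.21e-07) in normoxia and by 1.53 (SE 0.12, adjusted p = 2.51e-09) in hypoxia. KO was above WT 2.7-fold in normoxia fructose and 3.74-fold in hypoxia fructose, and 1.29-fold in hypoxia glucose (adjusted p = 0.000734). In normoxia glucose the log2 value of 0.20 did not pass (adjusted p = 0.0594) although the groups did not overlap; it was called with a replicate block (0.0244) and without WT normoxia fructose replicate 3 (0.0431), WT hypoxia fructose replicate 2 (0.0441), KO normoxia glucose replicate 3 (0.0474) or KO hypoxia fructose replicate 3 (0.0489). Hypoxia lowered Mylk in WT fructose (log2 -0.53, SE 0.091, adjusted p = 0.000114), and within WT the fructose change was stronger in hypoxia by -0.64 (SE 0.12, adjusted p = 0.00382). In KO glucose hypoxia raised it by 0.29 (adjusted p = 0.0218), a call lost without KO normoxia glucose replicate 2 or 3 (0.0568 and 0.0818) or KO hypoxia glucose replicate 1 or 2 (0.0858 and 0.0654). The 50 tested genes nearest to Mylk had median KO against WT changes of 0.42 to 0.59, which is as high as the Mylk change with glucose and below its 1.43 and 1.90 with fructose.

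Myh11, the smooth muscle myosin heavy chain (chromosome 10, 764421 to 859184, plus strand), changed little. Over all 24 libraries it ranged from 3.371 to 6.973 CPM. It was called in 2 comparisons, both of which involve WT hypoxia fructose, where its values were 4.834, 6.973 and 6.954 CPM. KO against WT in hypoxia fructose gave a log2 change of -0.65 (SE 0.21, adjusted p = 0.0103), which lost its call without KO hypoxia fructose replicate 1 (0.0511). Fructose against glucose in WT hypoxia gave 0.54 (SE 0.21, adjusted p = 0.0362), which was lost without WT normoxia fructose replicate 2 (0.061), without replicate 1 (0.144) or 2 (0.0677) of WT hypoxia glucose, and without replicate 2 (0.132) or 3 (0.119) of WT hypoxia fructose. With all libraries it was also lost under upper quartile factors (0.0767), with no filter on low counts (0.0683) and in the fit with only the groups compared (0.0737). In both comparisons the groups overlapped. A further pair of Myh11 values missed the threshold and passed under some alternatives: hypoxia in WT fructose (0.55, adjusted p = 0.0587) passed with a replicate block (0.0473) and without WT hypoxia fructose replicate 1 (0.0275) or KO hypoxia glucose replicate 3 (0.0438). The genotype difference of the fructose change in hypoxia (-0.74, adjusted p = 0.0647) passed without WT hypoxia fructose replicate 1 (0.031), KO hypoxia glucose replicate 2 (0.048) or KO hypoxia fructose replicate 2 (0.0497). The 33 tested genes within 25 places of Myh11 on its chromosome had median KO against WT changes of -0.25 to -0.32. In hypoxia fructose their median was -0.32, beside -0.65 for Myh11.

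Tagln encodes transgelin, or SM22-alpha, an actin-binding protein of smooth muscle (chromosome 8, 50222896 to 50231357, minus strand). A stretch of 1019 bases overlaps Sidt2 on the same strand, so reads there could count for either gene, and Sidt2, at a mean of 99.79 CPM, was called in none of the 12 comparisons. In WT normoxia Tagln stood at 13.91, 12.92 and 9.775 CPM with glucose and at 48.19, 42.66 and 28.56 CPM with fructose. In WT hypoxia the values were 12.94, 14.36 and 10.98 CPM with glucose and 45.57, 50.05 and 38.07 CPM with fructose. The WT sugar groups did not overlap. KO normoxia gave 29.67, 35.07 and 33.44 CPM with glucose and 35.04, 39.34 and 29.91 CPM with fructose. KO hypoxia gave 28.96, 29.24 and 20.53 CPM with glucose and 25.34, 22.28 and 19.42 CPM with fructose. The KO sugar groups overlapped in each oxygen condition. In normoxia all 6 KO libraries lay within the range of WT fructose, and in hypoxia they lay between the WT sugar groups.

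Fructose raised Tagln 3.43-fold in WT normoxia (log2 1.78, SE 0.2, adjusted p = 4.17e-07) and 3.97-fold in WT hypoxia (log2 1.99, SE 0.2, adjusted p = 5.32e-08). The KO values of 0.08 and -0.24 did not pass (adjusted p = 0.931 and 0.598). The difference between genotypes was -1.70 (SE 0.28, adjusted p = 0.000148) in normoxia and -2.23 (SE 0.28, adjusted p = 4.63e-06) in hypoxia. KO against WT, Tagln was higher in normoxia glucose (1.44, adjusted p = 5.29e-06) and hypoxia glucose (1.11, adjusted p = 9.82e-05) and lower in hypoxia fructose (-1.11, adjusted p = 4.73e-05). In normoxia fructose the value of -0.26 did not pass (adjusted p = 0.259) but did so without WT normoxia fructose replicate 3, the lowest of its group (-0.46, adjusted p = 0.0343). The 50 tested genes nearest to Tagln had median KO against WT changes of 0.19 to 0.24. Hypoxia lowered Tagln in KO fructose by a log2 change of -0.59 (adjusted p = 0.0345), a call lost without replicate 1 or 2 of KO normoxia fructose (0.0812 and 0.144) or replicate 2 or 3 of KO hypoxia fructose (0.0805 and 0.139). That call was also lost with no filter on low counts (0.0665).

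**Figure D4:**
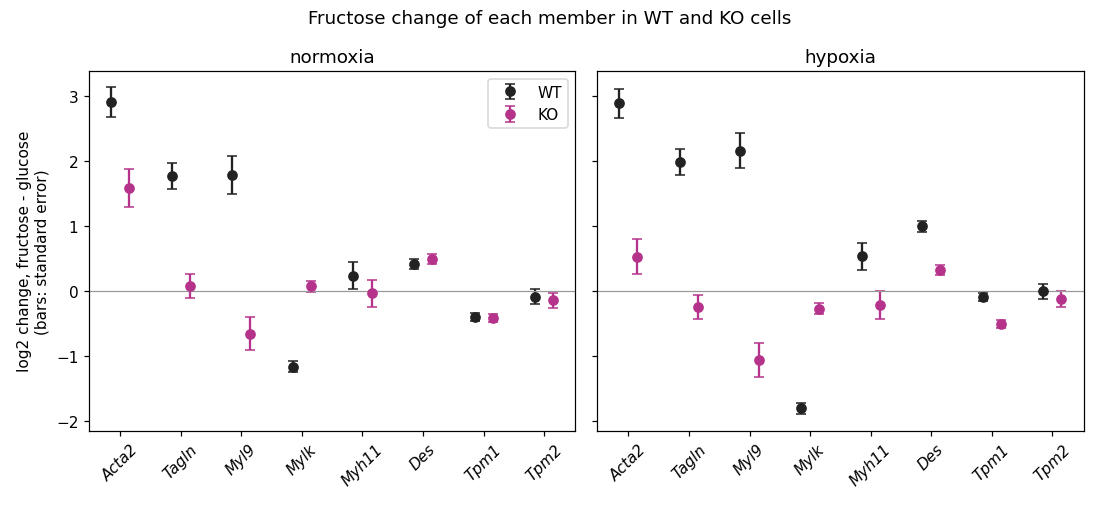
Log2 change with fructose against glucose of the 8 tested members in WT (black) and KO (magenta), in normoxia (left) and hypoxia (right), with bars for 1 standard error of the fit. Acta2, Tagln and Myl9 rise and Mylk falls in WT, whereas in KO the values of Tagln and Mylk lie between -0.27 and 0.08 and those of Myl9 at -0.65 and -1.06.

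Tpm1 and Tpm2 are tropomyosins, which run along the actin filament, and they changed in opposite directions in KO. Tpm1 (chromosome 8, 72814740 to 72842228, minus strand) stood at 369.2, 384.0 and 399.8 CPM in WT normoxia glucose and 284.8, 262.8 and 290.8 CPM in WT normoxia fructose. In KO normoxia the values were 241.1, 246.2 and 262.7 CPM with glucose and 197.2, 177.1 and 191.9 CPM with fructose. The KO libraries lay below the WT libraries with the same sugar, and fructose libraries below glucose libraries in each genotype. In hypoxia Tpm1 ranged from 347.6 to 366.8 CPM (WT glucose), 285.4 to 309.6 CPM (WT fructose), 220.1 to 232.2 CPM (KO glucose) and 152.9 to 170.1 CPM (KO fructose), in the same order. KO against WT, Tpm1 was 1.52-fold and 1.54-fold lower in normoxia with glucose and with fructose, and 1.5-fold and 1.99-fold lower in hypoxia (SE 0.059 in log2 for each, largest adjusted p = 1.35e-08). Fructose lowered it in WT normoxia (-0.39, adjusted p = 8.9e-06), KO normoxia (-0.41, adjusted p = 0.000214) and KO hypoxia (-0.50, adjusted p = 3.33e-06). The 50 tested genes nearest to Tpm1 had median KO against WT changes of 0.18 to 0.29.

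In WT hypoxia the fructose change of Tpm1 was -0.09 and did not pass (adjusted p = 0.215), though the CPM of the groups do not overlap. CPM here are not scaled by the TMM factors of the fit, which lay at 0.909 to 0.9238 in WT hypoxia fructose and at 1.027 to 1.064 in WT hypoxia glucose. With upper quartile scaling the value was -0.17 (adjusted p = 0.0256) and with DESeq2 -0.12 (adjusted p = 0.0417), both called lower. Small hypoxia changes went in opposite directions with fructose, 0.18 in WT (adjusted p = 0.0276) and -0.19 in KO (adjusted p = 0.0257), with a difference of -0.37 (SE 0.083, adjusted p = 0.0179). The WT call was lost without WT normoxia fructose replicate 2 (0.193) or WT hypoxia fructose replicate 1 (0.0531) or 3 (0.119), and the KO call without KO normoxia fructose replicate 1 (0.119) or 3 (0.0723) or KO hypoxia fructose replicate 1 (0.068) or 2 (0.109). The difference was lost without WT normoxia fructose replicate 2 (0.0627), WT hypoxia fructose replicate 3 (0.0506) or KO normoxia fructose replicate 1 (0.0572). With all libraries, the WT call was also lost with no filter on low counts (0.0787) and with only the groups compared (0.127). The KO call was lost in the same 2 settings (0.0667 and 0.0912) and under upper quartile factors (0.0762). The difference was lost with only the groups compared (0.0774).

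Tpm2 (chromosome 5, 59016622 to 59025631, minus strand) was higher in KO in every medium and was called in no sugar or oxygen comparison of the edgeR fit to all 24 libraries without a block. In normoxia glucose its level in WT was 246.2, 240.5 and 224.4 CPM, against 325.7, 327.2 and 343.4 CPM for KO. In hypoxia glucose WT gave 235.8, 268.6 and 207.6 CPM against 403.8, 387.0 and 354.6 CPM for KO. In normoxia fructose WT gave 237.9, 210.3 and 193.5 CPM against 314.5, 315.3 and 274.7 CPM for KO. KO libraries lay above WT libraries in each of these media, and also in hypoxia fructose, with 280.8 to 403.3 CPM against 201.0 to 219.3 CPM. In normoxia the log2 changes were 0.50 (glucose) and 0.43 (fructose), and they were 0.75 and 0.63 in hypoxia (SE 0.12 in each, adjusted p between 1.06e-05 and 0.00296). In KO fructose the hypoxia value of 0.26 (adjusted p = 0.114) passed with a replicate block (0.0122) and without KO hypoxia fructose replicate 3, the lowest of its group (0.41, adjusted p = 0.0109). In KO glucose the hypoxia value of 0.24 (adjusted p = 0.175) passed with the block (0.0248) and in the fit with only the groups compared (0.032). The 50 tested genes nearest to Tpm2 had median KO against WT changes of 0.16 to 0.23, in the same direction as Tpm2 but smaller. Over the 24 libraries the counts of Cnn1, which encodes calponin (chromosome 8, 23113048 to 23121761, plus strand), never exceeded 3 in a library, and 3 counts amount to 0.1303 to 0.2091 CPM in these libraries, counting error only. Actg2 (chromosome 4, 115215060 to 115239723) had 0 to 9 counts and was not tested. Its lowest group, WT normoxia glucose, had 1, 0 and 0 counts and its highest, KO hypoxia fructose, had 2, 4 and 9.

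Des encodes desmin, the intermediate filament protein of muscle (chromosome 9, 82556573 to 82564294, plus strand), and was the member that rose in each of the 12 comparisons. In WT it stood at 26.68, 28.71 and 34.79 CPM in normoxia glucose, 38.63, 40.93 and 34.89 CPM in normoxia fructose, 42.88, 45.07 and 42.89 CPM in hypoxia glucose, and 74.63, 79.29 and 76.54 CPM in hypoxia fructose. In KO the same 4 groups gave 93.35, 99.55 and 98.37 CPM, then 142.0, 140.1 and 132.0 CPM, then 176.8, 167.5 and 165.7 CPM, then 216.7, 220.8 and 202.6 CPM. The 8 groups did not overlap, and hypoxia fructose was the highest in each genotype. KO against WT, Des was higher 3.27-fold in normoxia glucose (log2 1.71, SE 0.083, adjusted p = 3.17e-14), 3.47-fold in normoxia fructose, and in hypoxia 4.08-fold with glucose and 2.56-fold with fructose. The nearest 50 tested genes had median changes of -0.06 to -0.35. Hypoxia raised Des by log2 0.53 in WT glucose, 1.11 in WT fructose, 0.85 in KO glucose and 0.67 in KO fructose (largest adjusted p = 0.000124).

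Fructose raised Des 1.34-fold in WT normoxia, 2-fold in WT hypoxia, 1.42-fold in KO normoxia and 1.26-fold in KO hypoxia (largest adjusted p = 0.0107), and the last call was lost without KO hypoxia glucose replicate 3 (0.062) or KO hypoxia fructose replicate 1 (0.052). In WT the fructose change was larger in hypoxia than in normoxia by 0.58 (SE 0.12, adjusted p = 0.00494), a call lost in the fit with only the groups compared (0.0543). In hypoxia it was smaller in KO than in WT, with a difference of -0.67 (SE 0.11, adjusted p = 6.88e-05). In normoxia the genotypes differed by 0.09, which did not pass (SE 0.11, adjusted p = 0.664).

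The differences between effects were tested for the 8 members with enough counts. Genotype changed the fructose effect of 4 members in normoxia and of 6 in hypoxia, where 19.1% and 25.6% of all tested genes were called. These were Acta2, Tagln, Myl9 and Mylk in normoxia, joined in hypoxia by Des and by Tpm1 (value -0.41, SE 0.083, adjusted p = 0.000599). Genotype changed the hypoxia effect of 4 members with fructose, against 2.11% of all tested genes, and of 0 with glucose, against 0.183%. The 4 were Myl9, Mylk, Des and Tpm1, and the fit with only the 4 groups compared called none of them. Oxygen changed the fructose effect of 3 members in WT, against 3.27% of all tested genes, namely Mylk, Des and Tpm1, and of 0 in KO, against 0.00677%. In WT the edgeR fit with only the groups compared lost the calls of Des (adjusted p = 0.0543) and Tpm1 (0.147). For the 2 counts of 0, edgeR gave 1 member (glucose) and 2 members (KO) at an unadjusted p under 0.05, and DESeq2 called 0 in each. The unadjusted counts have no share of all tested genes at that threshold beside them.

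Across WT libraries, Acta2, Tagln and Myl9 ran together and Mylk ran opposite to them. As a description over 12 WT libraries, which form 4 groups and share their media, Pearson's r of log2 CPM was 0.97 for Acta2 with Tagln, 0.90 for Tagln with Myl9, 0.92 for Acta2 with Myl9 and -0.96 for Acta2 with Mylk. Over the 12 KO libraries the same values were 0.06, 0.36, -0.61 and 0.05, so Acta2 and Myl9 ran opposite there. Tpm1 kept a negative r with Acta2 in each genotype, -0.80 in WT and -0.77 in KO.

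**Figure D5:**
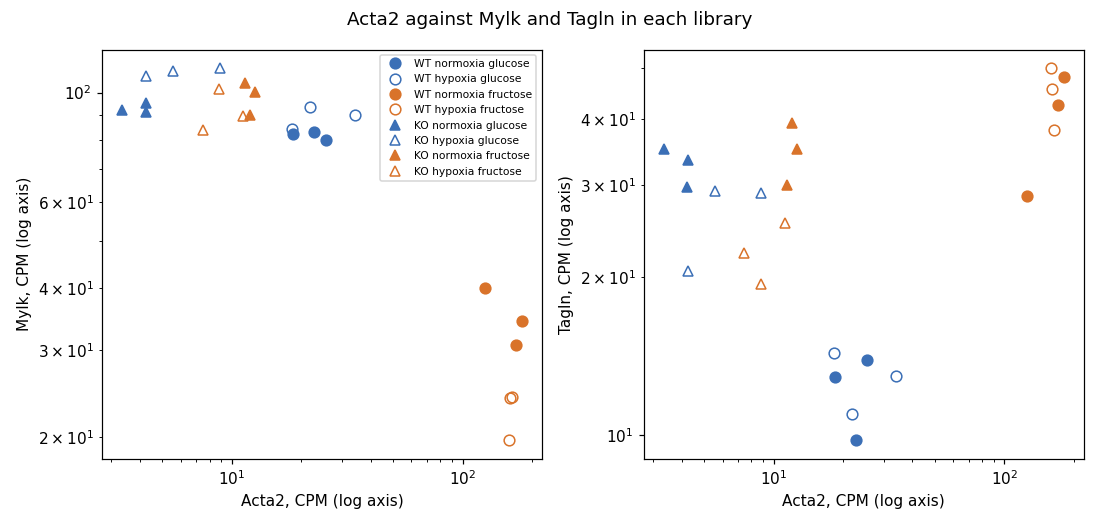
Acta2 level against Mylk (left) and Tagln (right) in each of 24 libraries, both in CPM on log axes, with circles for WT, triangles for KO, filled symbols for normoxia, open symbols for hypoxia, blue for glucose and orange for fructose. WT libraries form a glucose cluster and a fructose cluster (r of -0.96 with Mylk and 0.97 with Tagln over 12 libraries), and KO libraries lie to the left (r of 0.05 and 0.06). Among these KO libraries Acta2 in normoxia was 3.346 to 4.248 CPM with glucose and 11.44 to 12.57 CPM with fructose.

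The genes most like each member were sought among 10088 tested genes by Pearson's r of log2 CPM over the 24 libraries, which share the same groups. For Acta2 these were Ugt1a8 (0.980), Vps33a (0.978) and Fam171b (0.974), and with the genotype means subtracted Ugt1a8 (0.985), Ahrr (0.957) and Entpd5 (0.957). For Mylk they were Myl12b (0.981), Hdac1l (0.969) and Padi3 (0.966), and for Tpm2 Vasp (0.966), Cfl1 (0.964) and Csrp1 (0.946). With the genotype means subtracted, Mylk was nearest to Reck (0.970), Myl12b (0.969) and Cnot6 (0.966). Tpm2 was then nearest to Fam25a (0.900), Spryd3 (0.874) and Cfl1 (0.870), without Vasp and Csrp1. Myl12b encodes a further regulatory light chain that Mylk can phosphorylate, and Vasp and Cfl1 encode actin regulators. Ugt1a8, a glucuronosyltransferase gene, rose with fructose by log2 2.76 in WT normoxia and 1.18 in KO normoxia, beside 2.91 and 1.59 for Acta2. It was picked by its r with Acta2 in these same libraries, so the closeness of these changes follows from the choice. Without that subtraction, the nearest to Tagln was Tmem181 (0.956), to Myl9 Glipr1 (0.882), to Des Crct1 (0.978), to Tpm1 Cldn15 (0.974) and to Myh11 Zswim3 (0.819).

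Other genes of the smooth muscle programme were counted from lists. Of 17 regulators and further contractile genes, 16 were matched and 10 tested, and Myocd, Lmod1, Itga8, Kcnmb1, Nexn and Foxf1 stayed below 1 CPM in every library. Of the 10, KO against WT called 4 higher and 4 lower in normoxia glucose (22.7% and 23.7% of all tested genes), and 6 higher and 2 lower in hypoxia fructose (25.7% and 28.8%), with medians of -0.00 and 0.28 beside 0.02 and -0.03 over all tested genes. Synpo2, an actin-bundling protein, was higher in KO in all 4 media, by log2 1.02 to 1.74, and higher with hypoxia in all 4 hypoxia comparisons, by 1.15 to 1.75. Pln, the phospholamban gene, fell with fructose in WT by -1.74 in normoxia and -1.70 in hypoxia. Fructose called 1 of the 10 higher and 5 lower in WT normoxia, against 19.9% and 17.9% of all tested genes. Among the contractile members it was 4 and 2, and the difference between the lists was not tested. Of 11 tested genes around SRF and myocardin, 3 were higher and 6 lower in KO in normoxia glucose (22.7% and 23.7% of all tested genes), and 5 higher and 3 lower in hypoxia glucose (24.3% and 24.1%). Csrp2 fell with fructose in WT, by -1.66 in normoxia and -1.72 in hypoxia, while in KO its values of 0.19 and -0.07 did not pass.

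The non-muscle relatives were mixed. Of 13 tested paralogs, 6 were higher and 2 lower in KO in normoxia glucose (22.7% and 23.7% of all tested genes), and 3 higher and 5 lower in hypoxia fructose (25.7% and 28.8%), the last counts being near those shares. Myl12a was higher in KO in each medium, by log2 1.10 to 1.39, and Myl12b by 0.33 to 1.31. Myl12b fell with fructose in WT, by -0.92 in normoxia and -1.21 in hypoxia, as Mylk did. Tpm3 also fell there, by -0.78 and -1.01, while Actg1, cytoplasmic gamma-actin, rose by 0.84 and 1.11. Of 18 genes that set light chain phosphorylation, all tested, 1 rose and 7 fell with fructose in WT normoxia, and 0 rose and 1 fell in KO normoxia. Over all tested genes 19.9% rose and 17.9% fell in WT normoxia, and 1.14% and 0.65% in KO normoxia. Ppp1r12b, a subunit of the myosin phosphatase that reverses Mylk, was lower in KO by -1.04 to -1.35.

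Markers of other cell types moved with genotype as well. The summed level of 7 fibroblast markers, which is carried mostly by collagen genes, lay between 14900 and 18770 CPM in WT normoxia glucose and between 3685 and 4693 CPM in KO normoxia glucose. It was also lower with fructose in WT normoxia, at 8542 to 10120 CPM. Lum was at 0, and Dcn, Pdgfra and Postn stayed below 1 CPM in every library. Of 7 lung epithelial markers, whose sum is nearly all Krt8, the summed level in normoxia glucose ran from 796.1 to 862.5 CPM for WT and from 1620 to 1791 CPM for KO, with Nkx2-1 at 0. Of the 5 tested, 3 were called higher and 1 lower in KO there (22.7% and 23.7% of all tested genes). Krt19 went against the sum, with means of 2.24 CPM in WT and 0.8556 CPM in KO. Of 7 pericyte markers, Rgs5 and Kcnj8 were at 0, Notch3 fell from 8.879 to 39.46 CPM in WT to at most 0.2081 CPM in KO, and Pdgfrb and Cspg4 were higher in KO in all 4 media. The striated muscle sum, carried by Tnni1, Tnnc1 and Tnnt2, ran in normoxia glucose from 124 to 171.5 CPM for WT and from 41.06 to 59.1 CPM for KO, with Myh6, Tnnt1, Myod1 and Myl2 at 0. Myl4 went against this sum, with means of 2.3 CPM in WT and 3.769 CPM in KO. For endothelial markers, of which 7 were tested, 5 were higher and 1 lower in KO in each glucose medium. The shares of all tested genes there were 22.7% and 23.7% in normoxia and 24.3% and 24.1% in hypoxia. With fructose 4 were higher and 0 lower in normoxia (25.7% and 28%), and 5 higher and 0 lower in hypoxia (25.7% and 28.8%). The gene called lower with glucose was Tek, with a mean of 3.958 CPM in WT and 0.8584 CPM in KO. Their sum, carried mostly by Flt1, in normoxia glucose ran from 84.75 to 108.3 CPM for WT and from 234 to 270 CPM for KO. The part of these markers in the changes of the contractile genes was not tested.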

How the data were processed

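The authors deposited raw gene counts, not normalized, for 24 libraries prepared by Novogene, per the labels' protocols. The submitters' processing notes name HISAT2, DESeq2 and the build Rnor_6.0. For versions, counting program and strand use, the sources used here give nothing. In 5 lines the content was emptied beforehand, and those genes are not used here. Unannotated loci (1978) took 1.216 to 1.675% of a library and stayed in totals and tests. A column whose name carries a stray hyphen was taken as replicate 3 of WT normoxia glucose.

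Genes kept by filterByExpr (minimum count 10, minimum total 15) entered a robust quasi-likelihood fit in edgeR 4.0.16 (R 4.3.3) with TMM factors of 0.909 to 1.06 and 8 groups, 16 residual degrees of freedom. Interactions were contrasts of the same fit. P-values were adjusted by Benjamini-Hochberg across the 14770 tested genes, per comparison, with a threshold of 0.05. The SE is the size of the log2 change divided by the root of F. CPM is the count per 1e+06 counts of the library total, without TMM. No libraries were duplicates, since chi-square values per gene between replicates lay at 5.142 to 20.68. The fit was tested on simulated data with known changes. Alternatives were RLE or upper quartile factors, no filter, a replicate block, only the groups compared, DESeq2 1.42.0 and leaving out each library.

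Members and gene lists were chosen with earlier results of these data known. Named genes are the members, up to 3 genes per list with the largest median KO against WT change (mean log2 CPM of at least 1), the 3 genes most like each tested member, Pfkfb3, overlapping genes and genes at or near 0. Paralogs of the members were named for their family. The text prints some of these genes, chosen with their values known.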

Additional observations from a re-analysis of the deposited data

Results flagged for a closer look

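Each value here is a difference between 2 effects on the log2 scale, tested in the edgeR fit and past an adjusted p of 0.05 over all tested genes. For the fructose change in KO minus that in WT, the normoxia values were -1.32 (Acta2, adjusted p = 0.0179), -1.70 (Tagln, 0.000148), -2.44 (Myl9, 6.15e-05) and 1.24 (Mylk, 1.21e-07). In hypoxia the same difference was -2.36 for Acta2 (adjusted p = 6.71e-05), -2.23 for Tagln (4.63e-06), -3.22 for Myl9 (8.56e-07), 1.53 for Mylk (2.51e-09), -0.67 for Des (6.88e-05) and -0.41 for Tpm1 (0.000599). Acta2, Tagln, Myl9 and Des rose with fructose in WT and Mylk fell. Tpm1 did not rise in WT, with changes of -0.39 in normoxia and -0.09 in hypoxia.

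For the hypoxia change in KO minus that in WT, with fructose, the values were -1.50 for Myl9 (adjusted p = 0.0296), 0.47 for Mylk (0.0439), -0.44 for Des (0.0378) and -0.37 for Tpm1 (0.0179). For the fructose change in hypoxia minus that in normoxia, within WT, they were -0.64 for Mylk (adjusted p = 0.00382), 0.58 for Des (0.00494) and 0.30 for Tpm1 (0.0455). The Des value of 0.58 lost its call in the fit with only the groups compared (adjusted p = 0.0543). The Tpm1 value of 0.30 kept its call under 7 of 30 alternatives, the Mylk value of 0.47 under 11, the Des value of -0.44 under 18 and the Myl9 value of -1.50 under 21.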

How the results depend on the processing

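Of 71 calls of members among 144 tested values, 56 were kept under all 30 alternatives, 15 were lost under at least 1, and none changed direction. Of members called, hypoxia against normoxia in KO fructose went from 3 to 1 with no filter on low counts. The fit with only the groups compared moved the genotype by oxygen count with fructose from 4 to 0 and the sugar by oxygen count in WT from 3 to 1. Leaving out 1 library gave 1 to 4 members for fructose in KO hypoxia (3 with all), 1 to 2 for hypoxia in KO glucose (2 with all), 1 to 3 for hypoxia in KO fructose (3 with all) and 0 to 4 for genotype by oxygen with fructose (4 with all). Other counts of members stayed within 1.5 times. Replicate numbers are not stated to pair libraries: deviations of same-numbered libraries correlated at -0.027 to 0.383 (median 0.130), and every pair was over 0.1 in 3 of 12 comparisons (fructose in WT normoxia and in KO hypoxia, and hypoxia in WT glucose). With a replicate block, hypoxia in KO fructose gave 4 members and genotype by oxygen with fructose 5, where Tagln was also called (-0.87, adjusted p = 0.000919).

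Over all tested genes the replicate block moved the calls from 265 to 571 (fructose, KO normoxia), 801 to 1543 (fructose, KO hypoxia), 711 to 1523 (hypoxia, WT glucose), 2072 to 3116 (hypoxia, KO glucose), 27 to 95 and 312 to 972 (genotype by oxygen, glucose and fructose), and 483 to 1196 and 1 to 15 (sugar by oxygen, WT and KO). DESeq2 gave 441 for fructose in KO normoxia, 57 and 609 for genotype by oxygen, and 852 and 23 for sugar by oxygen. The fit with only the groups compared gave 366 for hypoxia in WT glucose, 196 for genotype by oxygen with fructose, and 200 and 4 for sugar by oxygen. Upper quartile factors moved the share of positive calls from 41.9 to 56.2% (genotype by sugar, hypoxia), 49.4 to 63% (genotype by oxygen, fructose), 65 to 51.9% (sugar by oxygen, WT) and, with 3 calls in place of 1, 0 to 33.3% (sugar by oxygen, KO). DESeq2 moved the last to 26.1%. No scaling moved the median of all genes by more than 0.086 in log2. Depth limits Myl9, Actg2 and Cnn1. The cause of these shifts was not tested.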

Other observations

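Further actin and matrix genes were counted from lists. Of 18 tested genes of actin adhesion and stress fibres, 10 were higher and 4 lower in KO in normoxia glucose (22.7% and 23.7% of all tested genes), and 6 higher and 6 lower in hypoxia fructose (25.7% and 28.8%). With fructose 6 rose and 7 fell in WT normoxia (19.9% and 17.9% of all tested genes). Cald1, which encodes caldesmon, an actin-binding protein that restrains myosin, was lower in KO in all 4 media, by log2 -0.50 to -0.74. Actn1, alpha-actinin, was higher in KO in 3 media, by 0.53 to 0.64, and its value in hypoxia fructose was 0.11, which did not pass.

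Of 16 tested genes of TGF-beta signalling, 8 were higher and 5 lower in KO in normoxia glucose (22.7% and 23.7% of all tested genes), and 4 rose and 3 fell with fructose in WT normoxia, near the shares of 19.9% and 17.9% over all tested genes. Ltbp1, which holds latent TGF-beta in the matrix, was higher in KO by log2 0.78 to 1.96 and rose with fructose in WT by 0.83 in normoxia and 1.20 in hypoxia. Tgfb2, a TGF-beta ligand, was lower in KO in all 4 media, by -0.65 to -0.97.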
